A study of Mus musculus with 2 samples.

Results

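Dendritic cells that lacked the genes of the type 1 subset were described in orthotopic pancreatic tumors of mice, in 1 library given PBS and 1 given cmExoaCD11b. They were chosen from the counts of unique molecular identifiers (UMIs), which mark single captured RNA molecules. Barcodes entered with 1000 UMIs or more, 200 genes or more and mitochondrial genes at no more than 20% of UMIs. Of the kept barcodes, a member had H2-Aa, H2-Ab1 and H2-Eb1 together at 1% or more of its UMIs and fewer than 2 UMIs of Xcr1, Clec9a and Cadm1. It also had no UMI of Cd79a, Cd79b or Ms4a1, at most 1 UMI of Cd3e and Cd3g, and C1qa, C1qb and C1qc together under 0.1%. The rule left 106 of 14022 kept barcodes, 43 of 6904 from PBS and 63 of 7118 from cmExoaCD11b.

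Both libraries came from male C57BL/6J mice that were 5 to 6 weeks old when obtained. The tumors grew in the pancreas from K210 cells, a mouse pancreatic tumor line. Dosing into the peritoneum began 7 days after implantation and was repeated every 3 days. The cmExoaCD11b group received exosomes of mouse embryonic fibroblasts with anti-CD11b antibody on their surface, loaded with IL-12 mRNA and with 2′3′-cGAMP at 5 µg per mouse, and the other group received PBS. Cells of 3 mice per group were pooled 48 h after treatment into 1 droplet library each, so no value has a replicate and the treatments could not be compared by a test. With empty droplets included, the depth was 67143628 UMIs in 644248 barcodes for PBS and 81288480 UMIs in 723594 barcodes for cmExoaCD11b. All intervals below are exact 95% intervals that cover counting error only, and every ratio is cmExoaCD11b over PBS for these 2 libraries.

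Dendritic cells take up antigen, cut it into peptides and show these on MHC class II molecules to CD4+ T cells. The type 1 subset, marked by Xcr1 and Clec9a, presents antigen to CD8+ T cells. The remaining conventional dendritic cells, often called type 2, carry lectins such as Cd209a and Clec10a. Either subset can switch on Ccr7 and Fscn1 when it matures and moves toward lymph nodes. Cells that arise from monocytes in inflamed tissue can also carry MHC class II and Cd209a. cGAMP binds STING, which drives production of type I interferon, and interferon in turn switches on a broad set of antiviral genes.

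Most members held at least 1 of 3 defining genes of dendritic cells. Itgax, which encodes CD11c, had a UMI in 33 of 43 PBS and 41 of 63 cmExoaCD11b cells. Flt3, the receptor of the growth factor for these cells, had one in 23 and 33 cells, and Zbtb46, a transcription factor of conventional dendritic cells, in 21 and 21. One or more of them was found in 38 and 48 cells. The other 5 and 15 cells had none of them, at median depths of 2583 and 4538 UMIs, and these were members through MHC class II alone. Over all members the level of Itgax, as UMIs per 1000000 UMIs (CPM), was 232.6 in PBS and 140.2 in cmExoaCD11b, against 35.1 and 22.3 in C1q macrophages (C1q at 0.1% or more) and 5.39 and 2.46 in B cells of the same libraries. After each cell was thinned to 1000 UMIs, Itgax had a UMI in 11.6% and 17.5% of members and in 0.625% and 0.238% of B cells. Clec4n and Creb5, which were listed as markers of these cells, did not set them apart from macrophages. Clec4n, a lectin that binds fungal sugars, was at 328.1 and 235.7 CPM in the members and at 291.4 and 163.8 CPM in C1q macrophages. Creb5, a transcription factor, was at 420.5 and 280.4 CPM against 351.7 and 183.7 CPM. Both were near 0 in the type 1 dendritic cells of PBS, at 7.75 CPM each.

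**Figure D1:**
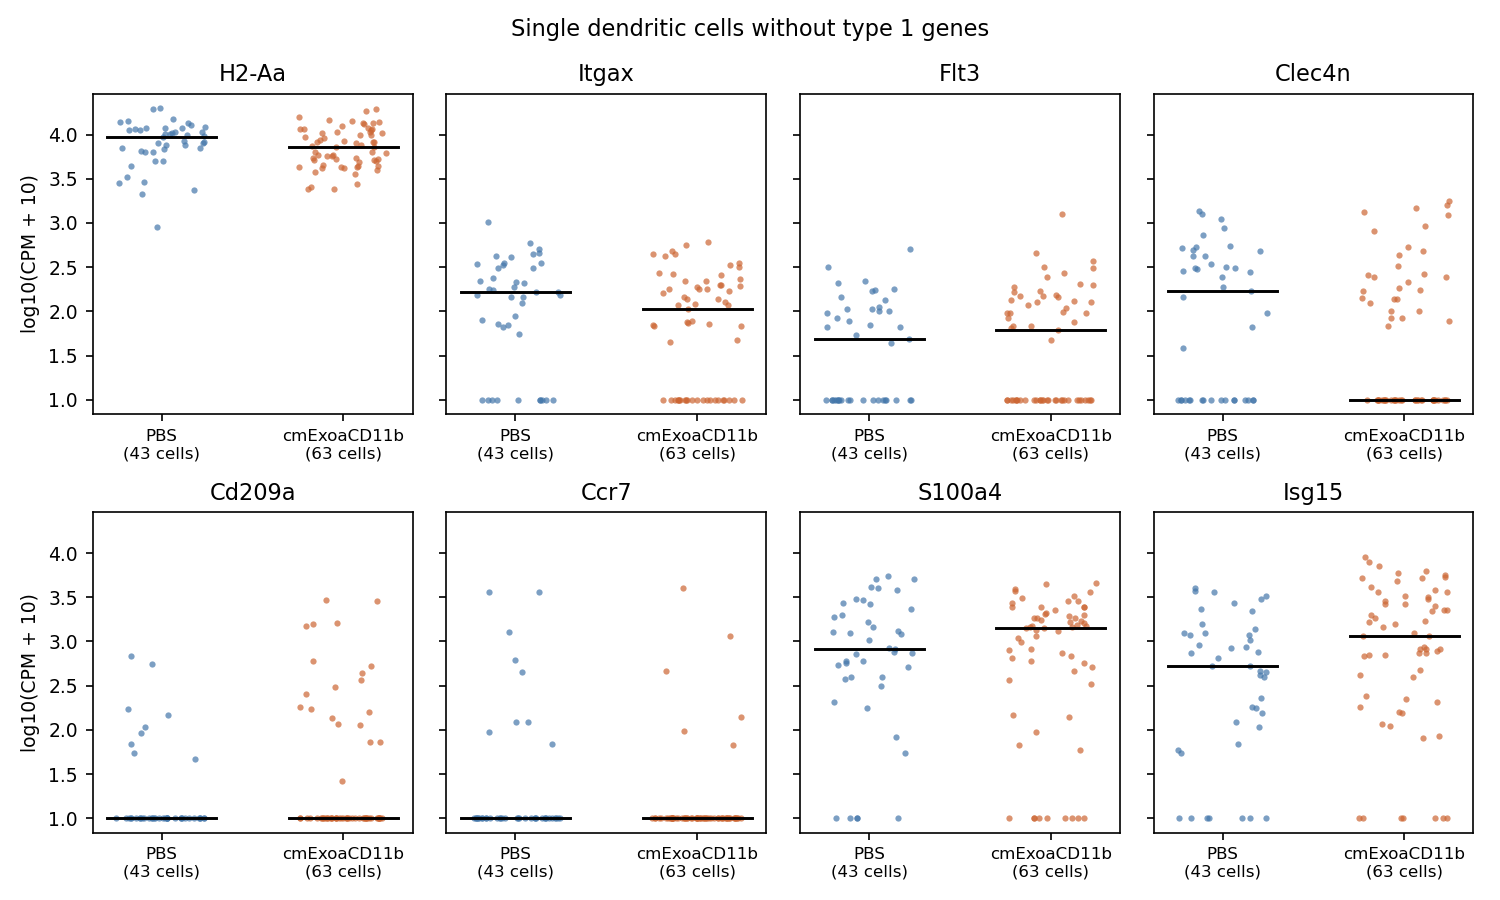
Each point is 1 cell, and the vertical axis gives log10 of the gene's CPM in that cell plus 10, so that cells without a UMI lie at 1.0. Black lines are medians over the 43 PBS and 63 cmExoaCD11b cells. H2-Aa was used to choose the cells and is above 0 in all of them, Cd209a and Ccr7 are each found in a minority, and the median of Isg15 is higher in cmExoaCD11b.

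The members were deep for these libraries. Their median was 14948 UMIs and 3564 genes in PBS and 11686 UMIs and 3019 genes in cmExoaCD11b, against 3788 and 4817 UMIs over all kept barcodes. Single members ranged from 1686 to 35393 UMIs in PBS and from 1068 to 61650 in cmExoaCD11b. The share of MHC class II had a median of 2.70% of UMIs in PBS and 1.96% in cmExoaCD11b, with lowest members at 1.02% and 1.03% and the nearest cells outside at 0.780% and 0.930%. The PBS library had 7 members under 1.5% and the cmExoaCD11b library 21. One barcode of a cmExoaCD11b member was also kept in the PBS library, and no member barcode was shared between the libraries as a member of both.

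The members made up 0.623% (0.451 to 0.838%) of kept barcodes in PBS and 0.885% (0.681 to 1.13%) in cmExoaCD11b. The ratio of the shares was 1.42, and its interval of 0.949 to 2.15 includes 1. Neutrophils were 43.8% and 50.6% of kept barcodes. Counted among the other barcodes, a denominator chosen after seeing the data, the ratio was 1.62 (1.08 to 2.44), an interval that leaves out 1. With MHC class II required at 2% of UMIs, 30 cells remained in each library and the ratio was 0.970 (0.565 to 1.67). With 0.5% required, 53 and 85 cells were found and the ratio was 1.56 (1.09 to 2.24), which also leaves out 1. Type 1 dendritic cells, taken as cells with at least 2 UMIs of Xcr1, Clec9a and Cadm1 under otherwise equal limits, numbered 10 in PBS and 36 in cmExoaCD11b, a ratio of 3.49 (1.70 to 7.89). C1q macrophages numbered 285 and 73, a ratio of 0.248 (0.189 to 0.322). The limit on C1q removed 37 PBS cells and 8 cmExoaCD11b cells from the candidates, and 14 PBS members against 4 cmExoaCD11b members still held a C1q UMI. Without the cells that held one, the ratio of the shares was 1.97 (1.24 to 3.19), which leaves out 1 as well.

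Genes that the members held far above the remaining kept barcodes in both libraries came from several pathways. They are named because of that excess, which the choice of cells partly fixes, and so they are a description. Clec10a, a lectin of type 2 dendritic cells, stood 91.3-fold above the rest in PBS and 114.9-fold in cmExoaCD11b. Plet1, a surface protein, stood 85.3-fold and 94.4-fold above, and Rtn1, of the endoplasmic reticulum, 61.5-fold and 73.0-fold. Kmo, an enzyme that breaks down tryptophan products, was at 167.9 and 141.4 CPM and Cyp7b1, which hydroxylates oxysterols, was 82.8-fold and 29.3-fold above the rest. Htr7, a serotonin receptor, was at 263.4 and 246.6 CPM. Ddr1, a collagen receptor, stood 24.5-fold and 41.2-fold above. Several of these genes were also found in type 1 dendritic cells, Plet1 at 666.3 and 193.8 CPM, Kmo at 116.2 and 175.6 CPM, Htr7 at 232.4 and 249.8 CPM and Rtn1 at 100.7 and 28.8 CPM. Clec10a was at 31.0 and 16.7 CPM there and Cyp7b1 at 0 and 3.03 CPM.

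The rule left out cells with MHC class II under 1% of UMIs, and the values here cover the members alone. Among these, the defining gene of plasmacytoid dendritic cells, which make large amounts of interferon, was not detected. This gene, the receptor Siglech, had 0 UMIs in the members of both libraries, which allows up to 4.62 CPM in PBS and 3.63 CPM in cmExoaCD11b (3 counts of the members' UMIs in each library). Cox6a2, Spib and Klk1 also had no UMI in them, and Ccr9 had 4 UMIs in PBS and 0 in cmExoaCD11b. Bst2, which is also an interferon-stimulated gene, was at 249.5 and 348.1 CPM. Tcf4, a transcription factor of these cells, was at 109.4 and 145.0 CPM and Runx2 at 73.9 and 77.4 CPM, against 54.4 and 66.9 CPM and 41.4 and 70.6 CPM in empty droplets (barcodes with 10 to 100 UMIs). Of the type 1 genes that the rule did not use, 5 had at least 50 UMIs in the members, and these were lower than in type 1 dendritic cells. Irf8, the transcription factor that subset depends on, was at 95.5 and 108.8 CPM in the members against 1953 and 1357 CPM in type 1 dendritic cells, and Wdfy4, needed for cross-presentation, at 349.6 and 272.0 CPM against 1147 and 1151 CPM. Batf3, another transcription factor of the subset, was at 89.3 and 64.1 CPM against 278.9 and 280.1 CPM, and Naaa, a lysosomal amidase, at 154.0 and 148.7 CPM against 1247 and 1182 CPM. Itgae was at 246.4 and 52.0 CPM against 480.4 and 210.5 CPM.

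The members were split into groups by single genes. A cell with at least 2 UMIs of Ccr7 and Fscn1 went into the Ccr7-Fscn1 group, a remaining cell with any Cd209a UMI into the Cd209a group, and a remaining cell with S100a4 at 0.1% of UMIs or more into the S100a4 group. In PBS these held 6, 9 and 12 cells, with 16 in none, and in cmExoaCD11b 5, 19 and 20 cells, with 19 in none. The Cd209a group was 20.9% (10.0 to 36.0%) of PBS members and 30.2% (19.2 to 43.0%) of cmExoaCD11b members, a ratio of 1.44 (0.621 to 3.62). The Ccr7-Fscn1 group was 14% (5.30 to 27.9%) and 7.94% (2.63 to 17.6%), a ratio of 0.569 (0.137 to 2.24). The S100a4 group was 27.9% (15.3 to 43.7%) and 31.7% (20.6 to 44.7%), a ratio of 1.14 (0.530 to 2.55). All 3 intervals include 1, so no change in the makeup was detectable with these numbers of cells. The S100a4 group is a range of values and not a type, with 19 PBS and 28 cmExoaCD11b members between 0.05% and 0.2% S100a4. S100a4 also crossed the groups, since 4 of the 20 PBS and 16 of the 37 cmExoaCD11b cells at 0.1% or more had a Cd209a UMI.

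Cd209a, the mouse relative of DC-SIGN, was rare in PBS and higher in cmExoaCD11b. PBS had 19 UMIs in 9 cells, of which 4 cells had exactly 1 UMI and the highest had 6. The cmExoaCD11b library had 182 UMIs in 20 cells, with 39 in the highest. The level was 29.3 CPM against 220.0 CPM, a ratio of 7.52 (4.68 to 12.8). Empty droplets held 1.08 and 3.75 CPM and the C1q macrophages 0 in both libraries. A positive cell held a mean of 2.11 UMIs in PBS and 9.10 in cmExoaCD11b, and the ratio of the shares of positive cells was 1.52 (0.660 to 3.78). Within the Cd209a group the level was 128.2 CPM in PBS and 661.0 CPM in cmExoaCD11b.

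The other type 2 genes did not share the size of the Cd209a difference. Of 10 listed genes 9 had at least 50 UMIs in the members of both libraries together, the depth required for a count. Of these, Cd209a alone was at least 2-fold higher in cmExoaCD11b and Irf4 alone at least 2-fold lower, at a median log2 ratio of 0.08. Among all 4215 genes with that depth, 3.94% were at least 2-fold higher and 2.44% at least 2-fold lower (6.38% in either direction), with a median of -0.01. Clec10a was at 215.6 and 228.4 CPM, a ratio of 1.06 (0.847 to 1.33). Mgl2, a lectin for galactose, was at 452.8 CPM in 22 PBS cells and 272.0 CPM in 15 cmExoaCD11b cells, a ratio of 0.601 (0.503 to 0.717). Irf4, a transcription factor of type 2 cells, was at 55.4 and 20.5 CPM, a ratio of 0.371 (0.195 to 0.677). Sirpa, an inhibitory receptor for CD47, was at 152.5 and 174.0 CPM, and Klf4, another transcription factor of these cells, at 309.6 and 390.4 CPM.

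**Figure D2:**
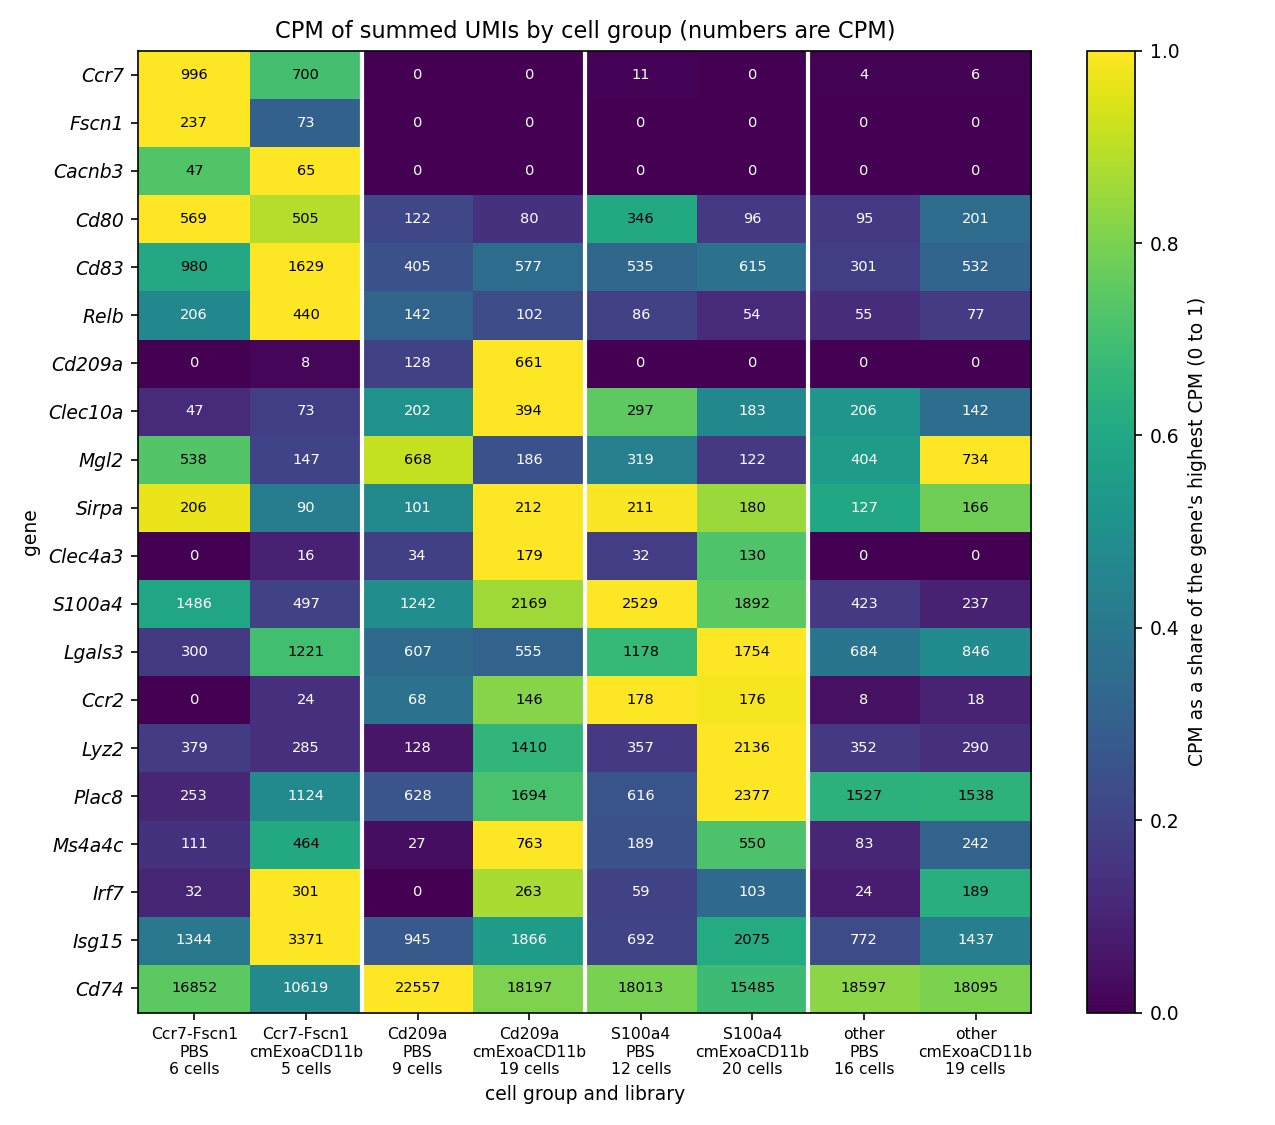
Rows are genes and columns are the 4 cell groups in each library with their number of cells. Each field gives the CPM of summed UMIs, colored by its share of the gene's highest value. Ccr7, Fscn1, Cd209a and S100a4 set the groups. Ms4a4c and Irf7 are low in the Cd209a group of PBS and high in that of cmExoaCD11b.

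The Cd209a groups of the libraries differed in other genes. Clec10a was found in 7 of 9 PBS and 13 of 19 cmExoaCD11b cells of the group, at 202.4 and 394.4 CPM. Ms4a4c, a membrane protein of monocytes, was found in 3 of 9 and 17 of 19 cells, at 27.0 and 763.2 CPM. Irf7, the master regulator of interferon genes, had no UMI in the 9 PBS cells and 262.9 CPM in 16 of 19 cmExoaCD11b cells. In contrast, Ifnb1, which encodes interferon beta, was at 870.4 CPM in 6 of the 9 PBS cells and at 295.8 CPM in 7 of the 19 cmExoaCD11b cells. Outside the gate, 684 genes had at least 30 UMIs in the group in each library, and none of them marked it strongly in both. Genes with fewer UMIs were not ranked. The largest of the lower ratios belonged to Vrk1, a nuclear kinase, with 249.7 against 141.7 CPM in the other members of PBS and 266.6 against 153.6 CPM in cmExoaCD11b. Cybb, the catalytic part of the phagocyte oxidase, was at 472.3 against 303.4 CPM and at 620.8 against 433.6 CPM.

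The Ccr7-Fscn1 group held few cells, each of which could be listed. In PBS the Ccr7 UMIs per cell were 34, 12, 7, 6, 2 and 2, and the Fscn1 UMIs of the same cells 0, 7, 8, 0, 0 and 0. In cmExoaCD11b the Ccr7 UMIs were 40, 28, 14, 2 and 2, and the Fscn1 UMIs 1, 0, 0, 8 and 0. Only 2 cells of each library held both genes, and these 4 cells were also those in which Cacnb3, a calcium channel subunit of mature dendritic cells, was detected. Ccr7 itself was at 101.7 and 105.2 CPM over all members, a ratio of 1.03 (0.743 to 1.45), with 51.5% and 46.0% of its UMIs from 1 cell. After thinning, Ccr7 had a UMI in 2 members of each library, whereas B cells, which use it too, had one in 21.9% and 13.5%.

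Several genes had higher levels in this group than in the other members of both libraries. Nr4a3, a nuclear receptor of migrating dendritic cells, was found in all 6 PBS and all 5 cmExoaCD11b cells, at 1217 against 223.5 CPM and 1352 against 227.1 CPM. Nfat5, a transcription factor of osmotic stress, was also found in every cell, at 600.7 against 122.9 CPM and 781.8 against 122.1 CPM. Map3k14, the kinase of the noncanonical NF-kB pathway, was at 490.1 against 148.5 CPM and 366.4 against 99.4 CPM, with 38.7% and 55.6% of the group's UMIs in 1 cell. Cd80, a costimulatory ligand of CD28, was at 569.1 against 180.9 CPM and 504.9 against 115.0 CPM, with 63.9% and 56.5% of the group's UMIs in 1 cell. Ccl5, a chemokine for T cells, was at 3035 against 551.2 CPM and 1230 against 335.0 CPM, with 77.1% and 55.0% from 1 cell. Pik3r5, Cxcl16 and Pik3r1 also ranked among the 10 leading genes of 315 with enough UMIs, with 37.5%, 60.4% and 59.3% of their cmExoaCD11b UMIs in 1 cell. One cell of 61650 UMIs supplied much of the 122801 UMIs of this group in cmExoaCD11b. The genes are ranked over the same cells that formed the group.

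Among genes of maturation and costimulation, Cd40 alone passed 2-fold over all members. Of 22 listed maturation genes 14 had the required depth, of which 1 was at least 2-fold higher and 0 lower, at a median log2 ratio of 0.02. Of 13 genes of costimulation and checkpoints 10 had it, of which again 1 was higher and 0 lower, at a median of -0.20. Both counts are near the background of 3.94% higher and 2.44% lower over all genes. Cd40, the receptor through which T cells license dendritic cells, was at 27.7 CPM in 10 PBS cells and 79.8 CPM in 29 cmExoaCD11b cells, a ratio of 2.88 (1.69 to 5.15). It was at 5.40 and 57.3 CPM in the S100a4 group, 27.0 and 84.0 CPM in the Cd209a group and 110.7 and 187.3 CPM in the Ccr7-Fscn1 group, and nearly level in the cells of no group, at 23.7 and 29.6 CPM. The PBS groups held at most 7 UMIs each. Cd83, a maturation marker, was at 457.4 and 736.1 CPM, a ratio of 1.61 (1.4 to 1.85). Cd86 was at 1255 and 1060 CPM, Cd80 at 218.7 and 172.8 CPM and Cd274, the ligand of PD-1, at 414.3 and 373.5 CPM. Lgals9, a ligand of TIM-3, was at 55.4 and 110.0 CPM, a ratio of 1.98 (1.33 to 3.0), and Tnfsf9, the ligand of 4-1BB, at 146.3 and 74.9 CPM, a ratio of 0.512 (0.366 to 0.713). Ccl17, a chemokine for CCR4+ T cells, was at 477.5 CPM in 19 PBS cells and 587.4 CPM in 13 cmExoaCD11b cells, of which 1 cell held 57.2%.

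The genes of antigen processing were for the most part somewhat lower in cmExoaCD11b. Of 10 genes 8 had a log2 ratio below 0, against 2137 of all 4215 genes, at a median of -0.28, and 1 (Lgmn) was at least 2-fold higher and 0 lower, against 3.94% and 2.44% of all genes. Other abundant genes were as low, with 75 of 86 ribosomal protein genes below 0 at a median of -0.24 and 10 of 10 mitochondrial genes at a median of -0.42. Cd74, the invariant chain, was at 19165 and 16194 CPM, a ratio of 0.845 (0.825 to 0.866). H2-DMa, which exchanges peptides on MHC class II, was at 913.3 and 685.3 CPM, a ratio of 0.750 (0.668 to 0.843), and H2-Oa, which restrains it, at 241.8 and 166.8 CPM, a ratio of 0.690 (0.545 to 0.873). Ctss, the protease that trims the invariant chain, was at 1395 and 1467 CPM and Ifi30, a reductase of endosomes, at 2070 and 1974 CPM. Lgmn, an endosomal protease, was at 84.7 CPM in 18 cells and 247.8 CPM in 36 cells, a ratio of 2.93 (2.16 to 4.01). C1q macrophages held Lgmn at 1172 and 850.1 CPM. MHC class II itself chose the cells, and the cmExoaCD11b library had more members near its limit.

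Interferon-stimulated genes were higher in the cmExoaCD11b library. Of the 36 genes of the type I interferon list 33 had the required depth, and 21 of these were at least 2-fold higher in cmExoaCD11b and 0 at least 2-fold lower, against 3.94% and 2.44% of all genes. The log2 ratio was above 0 for 32 of 33 genes, at a median of 1.26, and at 1.25 after the top cell of each gene was left out. Summed over the list, PBS held 11028 CPM and cmExoaCD11b 17119 CPM, and the empty droplets 3066 and 5813 CPM. The part of free RNA in the difference was not tested. Among single cells the sum ranged from 425.0 through a median of 8295 to 34867 CPM in PBS and from 892.2 through 13514 to 82347 CPM in cmExoaCD11b. The ranges overlapped, and 46 of 63 cmExoaCD11b cells (73.0%) lay above the PBS median.

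**Figure D3:**
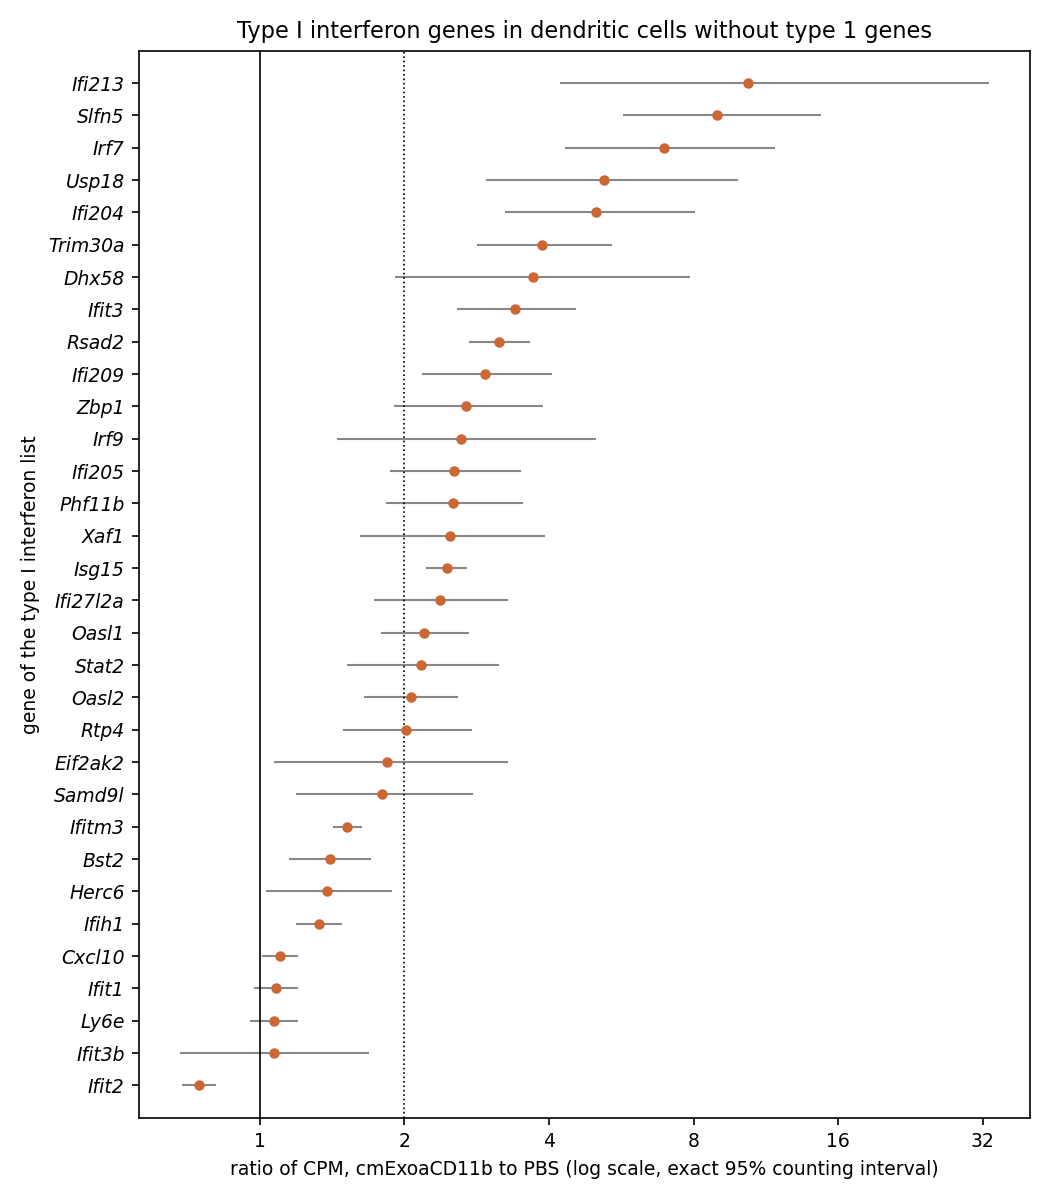
Points give the ratio of CPM in cmExoaCD11b to PBS for 32 of the 33 genes of the type I interferon list with at least 50 UMIs, on a log scale, with exact 95% counting intervals. The solid line marks equal levels and the dotted line a 2-fold higher level. Ifit2 is the gene below the solid line, and the ratios reach 10.4 for Ifi213.

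The largest ratios belonged to genes that were detected in few PBS cells, at levels near those of the empty droplets. Slfn5, of the Schlafen family of growth and virus restriction factors, was at 32.3 CPM in 10 of 43 PBS cells and 288.9 CPM in 45 of 63 cmExoaCD11b cells, a ratio of 8.93 (5.71 to 14.7). Irf7 had 19 UMIs in 9 PBS cells and 168 UMIs in 40 cmExoaCD11b cells, or 29.3 and 203.1 CPM, a ratio of 6.94 (4.31 to 11.8). The empty droplets held Slfn5 at 25.2 and 96.0 CPM and Irf7 at 31.4 and 77.5 CPM. Usp18, which removes Isg15 from proteins and dampens interferon signaling, was at 21.6 and 112.4 CPM, a ratio of 5.21 (2.96 to 9.90). Of the p200 family of nucleic acid sensors, Ifi213 was at 7.70 and 79.8 CPM (ratio 10.4, 4.22 to 33.0), with 7.57 and 39.5 CPM in the empty droplets, and Ifi204 at 37.0 and 184.9 CPM. Outside the list, their relatives Ifi206 and Ifi211 were at 3.08 and 70.1 CPM in 2 and 24 cells and at 16.9 and 165.6 CPM in 6 and 29 cells. Stat2 and Irf9, which act together below the interferon receptor, were also higher, at ratios of 2.17 (1.52 to 3.15) and 2.62 (1.45 to 5.02).

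The more abundant members of the list differed unequally. Isg15, a ubiquitin-like protein, had a median of 513.8 CPM per cell and a highest cell of 3968 CPM in PBS, and a median of 1133 CPM and a highest cell of 9142 CPM in cmExoaCD11b. Its summed level was 844.0 and 2068 CPM, a ratio of 2.45 (2.22 to 2.70), and after thinning it had a UMI in 41.9% and 65.1% of members. Rsad2, an enzyme that stops viral replication, was at 355.8 and 1118 CPM, a ratio of 3.14 (2.72 to 3.65), with 39.8% of the PBS UMIs in 1 cell. Ifitm3, which blocks virus entry, was at 1982 and 3017 CPM, a ratio of 1.52 (1.42 to 1.63). Ifit1 was at 941.1 and 1019 CPM, a ratio of 1.08 (0.974 to 1.20), and Ifit2 at 1930 and 1441 CPM, a ratio of 0.747 (0.689 to 0.809). Cxcl10, a chemokine for CXCR3+ T cells, was at 1397 and 1536 CPM, a ratio of 1.10 (1.01 to 1.20). Ifit1 and Ifit2, whose products bind viral RNA, were thus high in PBS members already, where C1q macrophages held them at 91.4 and 103.6 CPM, while Ifit3 was at 95.5 and 325.1 CPM.

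**Figure D4:**
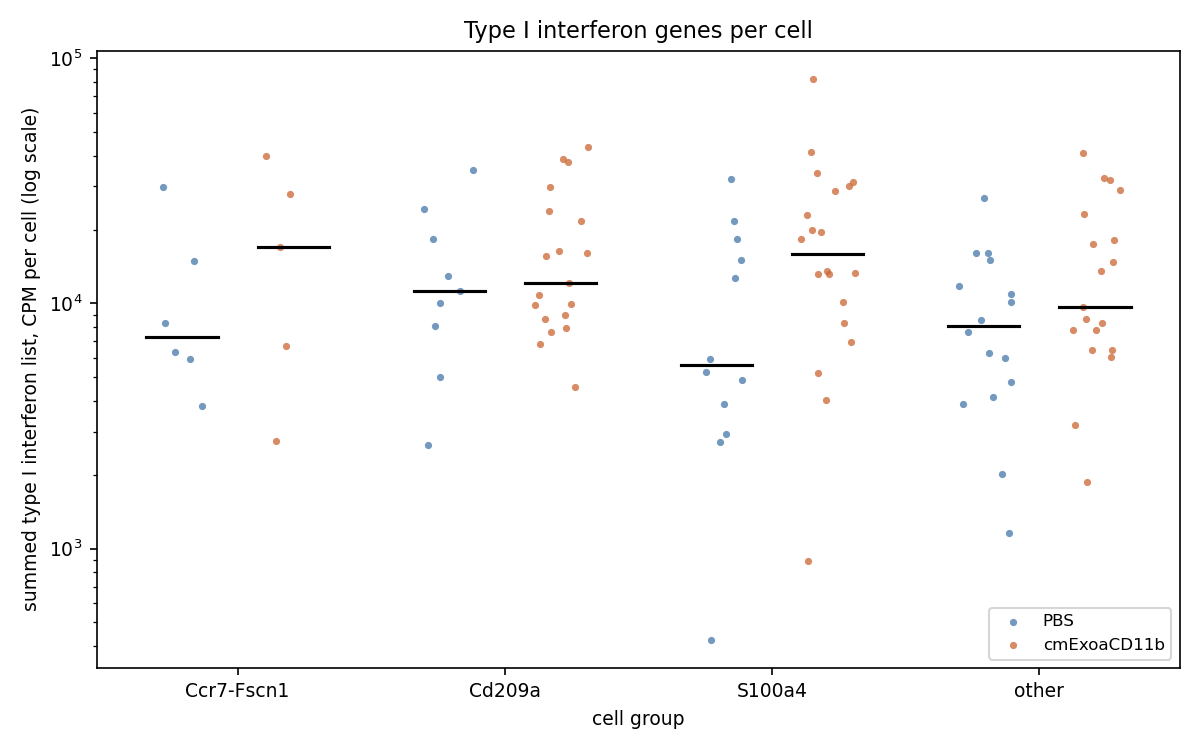
Each point is the summed CPM of the type I interferon list in 1 cell, on a log scale, by cell group and library, and black lines are medians. The medians are higher in cmExoaCD11b in all 4 groups, with 7304 against 16927 CPM in the Ccr7-Fscn1 group and 11190 against 12140 CPM in the Cd209a group, and the cells of both libraries overlap in each group.

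The shift was unequal among the cell groups, although each group had few cells and the inequality was not tested. The median per cell was 5612 CPM in PBS and 15879 CPM in cmExoaCD11b for the S100a4 group, and 8122 and 9679 CPM for the cells in none of the groups. In the Cd209a group, Irf7 and Slfn5 were far higher in cmExoaCD11b (Slfn5 at 6.75 and 241.0 CPM), while Rsad2 was at 809.7 and 609.9 CPM and Cxcl10 at 2314 and 956.8 CPM. The same list was also higher in the neighboring cell types. In type 1 dendritic cells 15 of 27 genes with the required depth were at least 2-fold higher, with a median log2 ratio of 1.22, against 8.21% of all genes with that depth in those cells. In C1q macrophages 29 of 34 were, with a median of 1.84, against 3.57% of all genes there.

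The promoters of these genes were read to show what many of them share in sequence. Windows from 250 bases before to 50 bases after the transcription start (RefSeq, GRCm38.p6) were found for 28 of the 36 genes. They were searched on both strands for GAAA, any 2 bases and again GAAA, the core of the interferon response element. It was present for 17 of 28 genes (60.7%) against 1070 of 26742 genes with a window (4.0%). It was held by 9 of 15 list genes at 2-fold or higher in cmExoaCD11b and by 7 of 10 below that. The interferon gamma list, described below, held it at a like share, in 7 of 12 genes (58.3%). It was found for 1 of 15 maturation genes (6.67%) and 0 of 7 type 2 genes. The NF-kB motif, taken as GGG, any 2 bases and TTTCC, was found for 0 of 28 interferon genes and 0 of 15 maturation genes, against 1.88% of all genes. A match of letters is a description and not a bound site.

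The stretches around the match are given for the 4 interferon genes with the largest ratios that held one and for Isg15, with the matching bases in capitals, read 5′ to 3′ in the direction of the gene. Slfn5 (ratio 8.93) held a single forward match that began 155 bases before the start, and Ifi213 (ratio 10.4) a single one at 73 bases. Trim30a (ratio 3.87) held 1 match on the opposite strand at 36 bases before the start, read here as its complement. Ifit3 (ratio 3.40) held 2 such matches, the first at 156 and the last at 122 bases. Isg15 (ratio 2.45) held 3 overlapping copies between 78 and 66 bases before the start. Irf7 had none in its window.
Slfn5, chr11:82951887-82952016, plus strand: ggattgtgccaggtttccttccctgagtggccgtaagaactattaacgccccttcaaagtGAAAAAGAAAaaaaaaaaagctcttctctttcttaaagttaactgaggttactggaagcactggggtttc
Ifi213, chr1:173599276-173599405, minus strand: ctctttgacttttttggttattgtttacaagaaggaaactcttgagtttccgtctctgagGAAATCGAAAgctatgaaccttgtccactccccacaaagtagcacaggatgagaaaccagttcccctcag
Trim30a, chr7:104465160-104465289, minus strand: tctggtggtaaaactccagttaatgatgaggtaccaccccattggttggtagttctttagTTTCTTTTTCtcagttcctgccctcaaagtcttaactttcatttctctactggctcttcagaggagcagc
Ifit3, chr19:34583313-34583476, plus strand: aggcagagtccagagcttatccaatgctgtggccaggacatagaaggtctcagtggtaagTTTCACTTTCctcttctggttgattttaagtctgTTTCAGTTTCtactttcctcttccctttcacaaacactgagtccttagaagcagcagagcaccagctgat
Isg15, chr4:156200815-156200956, minus strand: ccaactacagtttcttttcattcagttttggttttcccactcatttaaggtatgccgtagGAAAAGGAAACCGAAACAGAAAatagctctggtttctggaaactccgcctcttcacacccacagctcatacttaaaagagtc

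Genes of the interferon gamma response differed in both directions. Of 15 genes with the required depth 2 were at least 2-fold higher and 1 at least 2-fold lower, against 3.94% and 2.44% of all genes, at a median log2 ratio of 0.18. In C1q macrophages 10 of 16 were at least 2-fold higher, against 3.57% of all genes there, at a median of 1.12. Irgm1, an immunity-related GTPase, was at 27.7 and 77.4 CPM (ratio 2.79, 1.63 to 5.0), and Nlrc5, the activator of MHC class I genes, at 23.1 and 61.6 CPM (ratio 2.67, 1.48 to 5.11). Gbp5, a guanylate-binding protein of the inflammasome response, went the other way. It was at 355.8 CPM in 22 of 43 PBS cells and 81.0 CPM in 21 of 63 cmExoaCD11b cells, a ratio of 0.228 (0.171 to 0.300).

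The interferon genes themselves were detected in the members. Ifnb1 had UMIs in 13 PBS and 22 cmExoaCD11b cells, with up to 37 and 66 UMIs in 1 cell. Its level was 271.1 and 286.5 CPM, a ratio of 1.06 (0.866 to 1.29), against 35.0 and 34.0 CPM in the empty droplets, 51.1 and 100.5 CPM in C1q macrophages and 0 and 43.9 CPM in type 1 dendritic cells. Ifna2 was at 7.70 and 129.3 CPM (ratio 16.8, 6.98 to 52.8), but 2 PBS and 5 cmExoaCD11b cells held all of it, with 54.2% of the latter in 1 cell. Sting1, listed in the files as Tmem173, was at 61.6 and 65.3 CPM, and Nfkb1 and Nfkbia, of the NF-kB pathway, at 585.3 and 605.5 CPM and at 1223 and 1307 CPM. Of 8 genes of the STING and NF-kB list with the required depth, 0 were 2-fold higher or lower, against 6.38% of all genes.

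Among the inflammatory cytokines Tnf, Il1b and Il1a were at lower levels over all cmExoaCD11b members, though not in every cell group. Of 13 cytokine and chemokine genes with the required depth, Il1a was the 1 at least 2-fold lower and 0 were at least 2-fold higher, at a median log2 ratio of -0.29, and these counts are near the 2.44% and 3.94% of all genes. Tnf was at 659.2 and 333.6 CPM (ratio 0.506, 0.433 to 0.590), Il1b at 1854 and 1385 CPM (0.747, 0.688 to 0.811) and Il1a at 118.6 and 56.8 CPM (0.479, 0.326 to 0.697). By cell group, Tnf was at 1532 and 241.0 CPM in the Cd209a group and 426.8 and 195.4 CPM in the Ccr7-Fscn1 group. It was at 210.7 and 374.5 CPM in the S100a4 group and 534.2 and 520.6 CPM in the cells of no group. Il1b was at 1147 and 1520 CPM in the cells of no group and lower in cmExoaCD11b in the other groups. Without the cells rich in S100a8 and S100a9, described below, the ratio of Il1a was 0.553 and no longer 2-fold, while Cxcl9, a chemokine for T cells, passed 2-fold at 2.08 (1.35 to 3.27). Tnf and Il1b were also in the empty droplets, at 495.9 and 228.5 CPM and at 2215 and 1487 CPM. Ccl4, a chemokine that attracts T cells and monocytes, was the most abundant at 4918 and 5506 CPM, far above 1992 and 1298 CPM in the empty droplets. Il12a and Il12b, whose products form IL-12, had no UMI in the members, which allows up to 4.62 and 3.63 CPM, while type 1 dendritic cells held Il12b at 635.3 and 130.2 CPM.

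Genes of monocytes were higher in cmExoaCD11b, in part through a few cells. Of 15 genes with the required depth 5 were at least 2-fold higher and 0 lower, against 3.94% and 2.44% of all genes. The log2 ratio was above 0 for 13 of the 15, against 2078 of all 4215 genes, at a median of 0.65. The 5 genes were Ly6c2, Chil3, Ms4a4c, Lyz2 and Fcgr1. Ly6c2 and Chil3, at 94.3 and 808.6 CPM in cmExoaCD11b members, lay below the empty droplets, which held 401.5 and 660.5 CPM of Ly6c2 and 2377 and 5732 CPM of Chil3. Ms4a4c lay above them, as they held it at 17.7 and 92.8 CPM, which was also higher in cmExoaCD11b. The part of free RNA in its difference was not tested. In the same direction, the summed neutrophil list (S100a8, S100a9 and others) was at 5535 CPM in PBS and 18021 CPM in cmExoaCD11b. S100a8 and S100a9 together made up 1% or more of the UMIs in 1 PBS and 8 cmExoaCD11b members. Those 8 cells held 94.5% of the S100a8 and S100a9 UMIs of the cmExoaCD11b members, 97.0% of Camp, a granule peptide, and 91.6% of Chil3, and 6 of them also had a UMI of Itgax, Flt3 or Zbtb46. Empty droplets held the neutrophil list at 58039 and 62459 CPM.

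**Figure D5:**
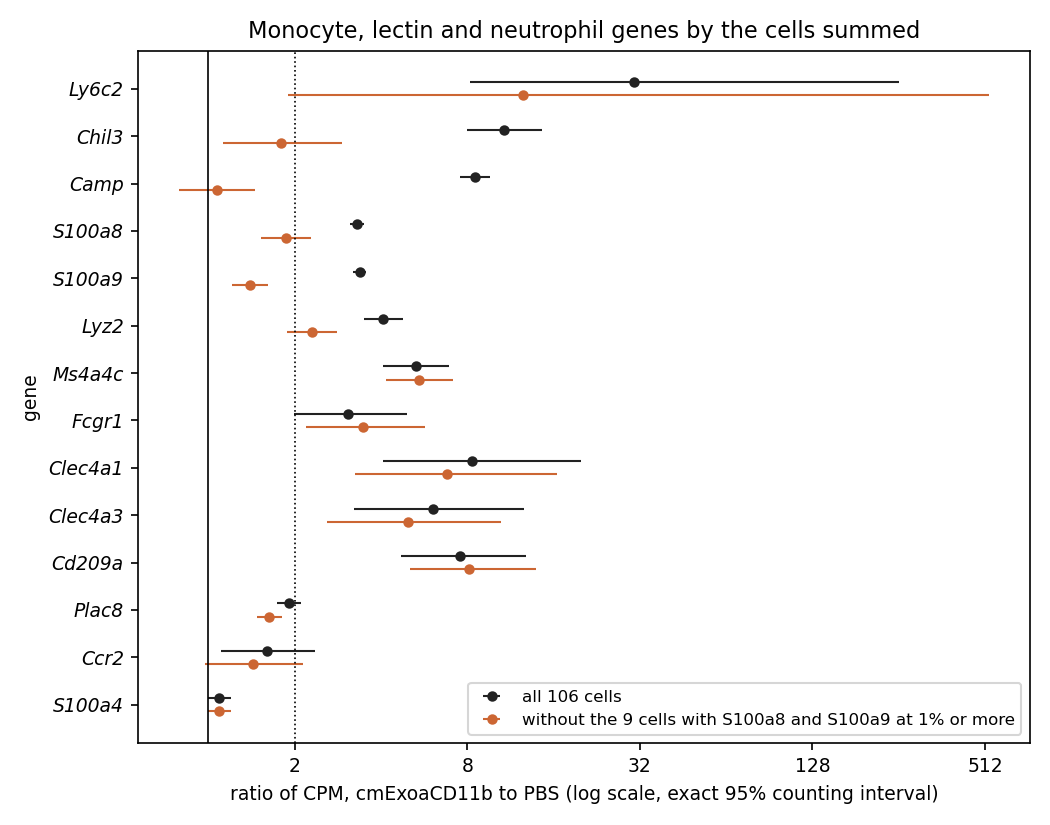
Points give the ratio of CPM in cmExoaCD11b to PBS on a log scale, with exact 95% counting intervals, over all 106 cells (black) and without the 9 cells with S100a8 and S100a9 at 1% of UMIs or more (orange). Chil3 and Camp move toward equal levels when these cells are left out, while Ms4a4c, Fcgr1 and Cd209a stay near their values.

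Without those 9 cells the monocyte genes separated. Chil3, a chitinase-like protein, went from a ratio of 10.7 (8.01 to 14.6) to 1.79 (1.12 to 2.92), and Camp from 8.48 to 1.07 (0.789 to 1.45). Ly6c2, which marks inflammatory monocytes, went from 78 to 14 UMIs in cmExoaCD11b and from 2 to 1 in PBS. Lyz2, or lysozyme, went from 4.08 (3.5 to 4.77) to 2.29 (1.88 to 2.81), and its levels of 223.2 and 511.3 CPM lay below the 5625 and 5178 CPM of the empty droplets. Ms4a4c had a ratio of 5.28 (4.08 to 6.93) with these cells and 5.42 (4.17 to 7.14) without them, in 18 of 43 and 47 of 63 cells, at 103.2 and 545.1 CPM over all members. Fcgr1, the high-affinity IgG receptor CD64 used to mark cells of monocyte origin, had 3.08 (1.99 to 4.94) and 3.47 (2.19 to 5.68), in 15 and 36 cells, and macrophages held it at 155.5 and 242.0 CPM. Cd209a and the interferon list were as large without these cells, at 8.14 (5.06 to 13.9) and a median log2 ratio of 1.25.

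Genes of lectin receptors other than Cd209a differed in both directions. Clec4a1 and Clec4a3, inhibitory and related receptors of the DCIR family, were at 12.3 and 102.7 CPM (ratio 8.34, 4.05 to 19.9) and at 16.9 and 102.7 CPM (ratio 6.06, 3.22 to 12.6). They were found in 5 and 27 cells and in 7 and 26 cells. Without the cells rich in S100a8 and S100a9 the ratios were 6.82 and 4.96. Clec4a2, which encodes DCIR, was at 40.0 and 79.8 CPM, a ratio of 1.99 (1.25 to 3.27). Of the 11 lectins with the required depth 3 were at least 2-fold higher and 0 lower, against 3.94% and 2.44% of all genes, these being Cd209a, Clec4a1 and Clec4a3. The log2 ratio was above 0 for 6 of the 11 and below 0 for 5, at a median of 0.08.

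S100a4, which sets the S100a4 group, belongs to the monocyte list, so the list was summed without it. The sum was 7110 CPM in PBS and 11805 CPM in cmExoaCD11b for the S100a4 group, 3738 and 8556 CPM for the Cd209a group, 3557 and 4984 CPM for the Ccr7-Fscn1 group and 6074 and 5549 CPM for the cells in no group. The cells with S100a8 and S100a9 at 1% or more included 3 of the S100a4 group and 2 of the Cd209a group in cmExoaCD11b, and the summed neutrophil list was at 837.4 and 15505 CPM in the former and 722.0 and 30566 CPM in the latter. Without those cells, a choice made after seeing the data, the monocyte sums were 7110 and 9219 CPM in the S100a4 group, 3738 and 6695 CPM in the Cd209a group and 5002 and 4706 CPM in the cells of no group. The S100a4 group had the highest sum in either library with and without them. Ccr2, the chemokine receptor of inflammatory monocytes, was at 178.3 against 25.9 CPM in the other PBS members and 175.8 against 81.3 CPM in cmExoaCD11b, in 6 of 12 and 12 of 20 cells. Lgals3, or galectin-3, was at 1178 against 607.5 CPM and 1754 against 786.7 CPM, with 61.0% of the latter from 1 cell. Rgcc, a cell cycle regulator, was at 199.9 against 49.5 CPM and 229.3 against 88.4 CPM, in 4 of 12 and 11 of 20 cells. In PBS 56.8% of the group's Rgcc UMIs came from 1 cell. Over all members S100a4 was nearly level, at 1314 and 1438 CPM (ratio 1.09, 1.00 to 1.20).

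At least 2-fold lower levels in cmExoaCD11b were found for 103 of all genes with the required depth, and for 106 after the top cell of each gene was left out in each library. Cpm, a carboxypeptidase, was at 154.0 and 3.63 CPM with 81.0% of the PBS UMIs in 1 cell, and its log2 ratio went from -5.01 to -3.70 without the top cells. For the chemokine Ccl7 96.7% of the PBS UMIs came from 1 cell, and the log2 ratio went from -4.28 to -0.95. Itgae was spread more widely than these. This integrin, CD103, marks type 1 dendritic cells in many tissues and part of the type 2 cells in the gut. It was at 246.4 CPM in 18 of 43 PBS cells and 52.0 CPM in 11 of 63 cmExoaCD11b cells, a ratio of 0.211 (0.147 to 0.297). C1q macrophages held it at 11 and 0 CPM. Epcam, an adhesion molecule that Langerhans cells and epithelia share, was at 138.6 and 60.4 CPM (ratio 0.436, 0.302 to 0.623) in 18 and 15 cells, while the keratins Krt8, Krt18 and Krt19 that define epithelium were at or near 0.

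Markers of other cells stayed low apart from the neutrophil genes. The macrophage list summed to 831.7 and 686.5 CPM, with Cd68 at 223.3 and 180.1 CPM and Adgre1, its defining surface protein, at 7 and 9 UMIs. Of 5 macrophage genes with the required depth 2 were at least 2-fold lower in cmExoaCD11b and 0 higher, against 2.44% and 3.94% of all genes. Their median log2 ratio was -0.31. Without the cells lacking Itgax, Flt3 and Zbtb46, 3 of 5 were lower, at a median of -1.12. The T cell list summed to 12.3 and 3.63 CPM, the fibroblast list to 0 and 2.42 CPM, and the genes of mast cells and basophils had no UMI. The B cell list summed to 177.1 and 350.5 CPM and its most abundant gene was Igkc, at 103.2 and 278.0 CPM against 8342 and 16712 CPM in the empty droplets. Genes of early stress, which tissue digestion can also switch on, had log2 ratios above 0 for 8 of 8 genes, against 2078 of all 4215, at a median of 0.74. Fos was at 853.3 and 2040 CPM (ratio 2.39, 2.17 to 2.64) and Hspa1b, a heat shock protein, at 670.0 and 1430 CPM (ratio 2.13, 1.91 to 2.39). The part of these markers in the differences above was not tested.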

How the data were processed

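For each 10x Genomics library the authors deposited raw UMI counts of 32285 genes from Cell Ranger, without cell filter or normalization. The file headers name version 7.1.0, the study's methods another. The genome build is not given in the sources used here. Libraries follow the labels, 1 per treatment. The members and gene lists were chosen with earlier results of these data known.

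UMIs were summed over members and scaled to CPM, with exact Poisson intervals for levels, Clopper-Pearson intervals for shares and exact conditional intervals for ratios. They cover counting error only, so the 649272 PBS and 827350 cmExoaCD11b member UMIs set the precision. Counts of genes used those with at least 50 UMIs over both libraries and 2-fold, with 1 UMI added. Genes named are members of the lists, the 10 with the largest ratio in each direction, the 10 leading each group and the 15 highest over other barcodes. H2-Aa, H2-Ab1, H2-Eb1, Xcr1, Clec9a, Cadm1 and the B, T and C1q genes of the rule support nothing. B cells had at least 2 UMIs of Cd79a, Cd79b and Ms4a1. Mx1, Clec7a and Cxcl11 were not analysed here. Some genes that the lists and the naming rule select, and the genotype of the tumor line, are not reported here. Scrublet's automatic threshold marked 0 barcodes in either library, so doublets were kept in the values given and the top 5.52% and 5.69% of scores were removed as an alternative. Shares of cells with a UMI were also taken after thinning to 1000 UMIs. The steps were tested on simulated data. Python 3.11.15, numpy 2.4.6, scipy 1.17.1, pandas 2.3.3, scanpy 1.11.5 and matplotlib 3.10.9 were used. Promoter windows came from RefSeq (GRCm38.p6). Other depth limits, scalings, thresholds and sets of cells were tried as alternatives.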

Additional observations from a re-analysis of the deposited data

How the results depend on the processing

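No paired analysis was possible because the labels give 1 library per group, of different mice, and no replicate could be left out. Of 102 alternatives 9 moved a value beyond the limits set. A turn of direction could be counted for the interferon median alone, whose lower limit lay above 0, and 0 of its 17 alternatives turned it. It could not be counted for the ratios of shares, whose intervals include 1, or for the counts of genes, which have no direction. With cells thinned to 1000 UMIs 303 genes had the required depth, 14 were 2-fold higher and 6 lower, and the interferon median was 0.68 over 8 genes. With the mean of each cell's CPM 158 genes were lower. Without cells holding a C1q UMI 221 of 3522 genes (6.27%) were higher and 116 (3.29%) lower, within the limits set. The interferon median was then 1.05. Requiring 20 UMIs gave 344 higher and 285 lower of 6875 genes, and requiring 200 UMIs 48 higher and 12 lower of 1174. The cause of these shifts was not tested. The interferon gamma list in place of the type I list had a median of 0.18. The ratio of the shares of cells, whose interval includes 1, ranged from 0.970 with MHC class II at 2% to 1.97, and its interval left out 1 with MHC class II at 0.5%, without cells holding a C1q UMI and among barcodes other than neutrophils, and began at 1.00 with the lower depth limit per cell. That of the S100a4 group ranged from 0.796 to 1.56 and lay below 1 with MHC class II at 2%, with S100a4 at 0.2% or 0.05% and without the cells lacking Itgax, Flt3 and Zbtb46. That of the Cd209a group ranged from 1.33 to 2.05 and that of the Ccr7-Fscn1 group from 0.455 to 0.792. Removing the highest doublet scores took out 2 PBS and 7 cmExoaCD11b members. The share among barcodes other than neutrophils and the values without the top cell of each gene were chosen after seeing the data. Likewise, leaving out the cells with no UMI of Itgax, Flt3 or Zbtb46 gave 38 and 48 cells, a ratio of shares of 1.23, 160 genes higher and 99 lower, and an interferon median of 1.28.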

Other observations

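Of 16 genes that the study names for dendritic cells 12 had the required depth, H2-Aa of the rule among them. Of these 0 were 2-fold higher or lower, against 6.38% of all genes. The log2 ratio was above 0 for 7 and below 0 for 5, at a median of 0.11. Among those above 0, Fmnl2, an actin regulator, was at 127.8 CPM in PBS and 174.0 CPM in cmExoaCD11b (ratio 1.36, 1.03 to 1.81). Nme2, a nucleoside diphosphate kinase, was at 782.4 and 960.9 CPM (1.23, 1.10 to 1.38). Of the cell cycle list 4 genes had at least 50 UMIs in the members and 0 were 2-fold higher or lower, against 6.38% of all genes. Top2a, a topoisomerase of dividing cells, was at 50.8 and 47.1 CPM, in 8 and 6 cells, with 66.7% and 41.0% of its UMIs in 1 cell. Areg, which encodes amphiregulin, was at 6.16 and 73.7 CPM, and 68.9% of the latter came from 1 of 5 cells. Hbb-bs, a hemoglobin chain, was at 6.16 and 58.0 CPM, and 95.8% of the latter came from 1 cell. Ccl2, a chemokine that draws monocytes, was at 140.2 CPM in 13 PBS cells and 20.5 CPM in 7 cmExoaCD11b cells (ratio 0.147, 0.0819 to 0.248), and the empty droplets held 633.9 and 180.4 CPM.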
